A study of Mus musculus with 6 samples.

Results

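The TAM system of bone marrow, made of the ligands Gas6 and protein S and the receptor tyrosine kinases Tyro3, Axl and Mertk, was followed in mice lacking nuclear myosin 1. The 5 genes Gas6, Pros1 (which encodes protein S), Tyro3, Axl and Mertk were taken by name from the 46603 genes listed in every count file, and all 5 were found and tested. The groups were 3 NM1 KO mice and 3 NM1 WT mice, all C57/Bl6 and 8 months old, with 1 library of total RNA per mouse, so that p-values measure the spread between mice. Nuclear myosin 1 is an isoform of the motor protein encoded by Myo1c that is found in the nucleus. Marrow from the femurs and tibiae of a mouse was pooled into its library without sorting, so each level is an average over all marrow cells. In such bulk RNA, fewer cells of a type and less RNA per cell cannot be told apart. The genes were selected from measured values: they were chosen by their function and by their levels and fold changes between NM1 KO and NM1 WT in these same libraries. Their own differences are therefore given as a description, with no test.

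TAM ligands are bridging proteins. Their Gla domain, formed by vitamin K-dependent gamma-carboxylation, binds phosphatidylserine on dying cells and activated platelets, while their other end binds the receptor on a phagocyte or vessel cell. Gas6 activates all TAM receptors, with its highest affinity for Axl, whereas protein S activates Tyro3 and Mertk and also serves as a cofactor of activated protein C, an anticoagulant. Mertk is the main TAM receptor of macrophages that clear apoptotic cells, including the nuclei expelled by maturing red cells in marrow. Axl is carried by stromal and vascular cells, some dendritic cells and activated macrophages, Tyro3 is best known from the nervous system, and in mice platelets have been reported to carry TAM receptors that Gas6 engages to stabilise thrombi.

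The 5 genes lie on 4 chromosomes of GRCm38: Gas6 (ENSMUSG00000031451) on chromosome 8 from 13465374 to 13494490, and Pros1 (ENSMUSG00000022912) on chromosome 16 from 62854307 to 62929346. Axl (ENSMUSG00000002602) lies on chromosome 7 from 25757273 to 25788705. Tyro3 (ENSMUSG00000027298) and Mertk (ENSMUSG00000014361) share chromosome 2, from 119797733 to 119818104 and from 128698956 to 128802894. The regions just upstream of the RefSeq start sites (GRCm38.p6, 250 bases each) are shown for the 4 genes that were higher in every NM1 KO library than in any NM1 WT library. They are chr8:13494536-13494785 on the minus strand for Gas6, chr16:62854057-62854306 on the plus strand for Pros1, chr7:25788734-25788983 on the minus strand for Axl and chr2:128698665-128698914 on the plus strand for Mertk. Each is written 5′ to 3′ along its gene, with GC boxes in capitals (GGGCGG on either strand, the site of Sp1 and KLF factors).
Gas6: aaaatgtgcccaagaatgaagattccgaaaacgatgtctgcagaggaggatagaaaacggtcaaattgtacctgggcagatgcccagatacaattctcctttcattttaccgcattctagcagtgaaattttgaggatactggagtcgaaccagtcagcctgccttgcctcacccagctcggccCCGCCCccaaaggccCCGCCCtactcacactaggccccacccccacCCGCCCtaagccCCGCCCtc
Pros1: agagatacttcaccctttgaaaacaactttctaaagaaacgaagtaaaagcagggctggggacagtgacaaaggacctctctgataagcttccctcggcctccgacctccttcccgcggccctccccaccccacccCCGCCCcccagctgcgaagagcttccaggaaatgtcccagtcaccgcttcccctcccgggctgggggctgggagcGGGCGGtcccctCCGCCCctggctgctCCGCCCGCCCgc
Axl: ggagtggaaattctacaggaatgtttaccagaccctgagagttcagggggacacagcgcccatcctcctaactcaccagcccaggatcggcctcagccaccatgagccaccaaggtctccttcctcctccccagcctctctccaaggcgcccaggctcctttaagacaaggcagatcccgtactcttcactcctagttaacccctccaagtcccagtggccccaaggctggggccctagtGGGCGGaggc
Mertk: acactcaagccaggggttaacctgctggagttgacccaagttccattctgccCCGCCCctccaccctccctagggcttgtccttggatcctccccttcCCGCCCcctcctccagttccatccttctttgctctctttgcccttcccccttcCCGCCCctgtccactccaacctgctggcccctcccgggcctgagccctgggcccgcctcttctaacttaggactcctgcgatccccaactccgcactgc
Gas6 had 4 GC boxes in this window, Pros1 5 including an overlapping pair, Mertk 3 and Axl 1, and 32.7% of 32851 RefSeq windows of the same length held at least 1. The GC content was 54.8% for Gas6, 64.4% for Pros1, 60.0% for Axl and 63.6% for Mertk, against a median of 52.4% over all windows. None of the 4 windows held a TATA box (TATAAA, in 12.4% of all windows), an AP-1 site (TGACTCA, 4.46%) or the LXR direct repeat (a pair of AGGTCA with 4 bases between, 0.0152%), with both strands searched. The Tyro3 window overlaps exons of other Tyro3 transcripts and is not shown. It had 3 GC boxes, as many as Mertk and more than Axl, a GC content of 73.2%, above that of the 4 genes shown, and likewise none of the other motifs.

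Library totals were 21101616 to 22618802 counts in NM1 KO and 15145052 to 17580660 in NM1 WT, so every NM1 KO library was deeper. Levels are given as CPM, a count scaled to a common library size (TMM), where 1 CPM stands for 14.7 to 23.0 counts. Myo1c had 73.8, 59.1 and 59.7 CPM across NM1 KO libraries 1 to 3 and 89.8, 115 and 102 CPM across NM1 WT libraries 1 to 3 (log2 fold change -0.67, SE 0.14, edgeR's quasi-likelihood adjusted p = 0.0516). These counts add up every Myo1c isoform and cannot show whether the nuclear one was lost. Y-linked transcripts were at 0 counts in NM1 KO 3, NM1 WT 1 and NM1 WT 3. They were at 155 to 202 CPM of unscaled totals in NM1 KO 1, NM1 KO 2 and NM1 WT 2. The X-linked transcript Xist showed the reverse, at 272 to 302 CPM in libraries without Y-linked transcripts and 0.280 to 1.14 CPM in those with them. By these transcripts each genotype held mice of both sexes, though the labels give no sex. On the first principal component (37.5% of variance) NM1 KO 1 to 3 lay at -19.0, -53.6 and -20.5 and NM1 WT 1 to 3 at 53.4, -4.39 and 44.1. On it NM1 WT 2 thus lay nearer to NM1 KO 1 and NM1 KO 3, though not to NM1 KO 2, than to the other NM1 WT libraries. NM1 WT 2 stood apart on the second component (21.4%), at -61.8 against 4.45 to 20.6 for the others. Erythroid and neutrophil markers, which are abundant in marrow but not confined to it, summed to at least 49268 and 30331 CPM in every library.

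Gas6, the ligand of all TAM receptors, had 112, 170 and 84.0 CPM across NM1 KO libraries 1 to 3 and 42.3, 52.4 and 67.5 CPM across NM1 WT libraries 1 to 3. Every NM1 KO value lay above every NM1 WT value, with NM1 KO 2 highest and the gap between NM1 KO 3 and NM1 WT 3 the narrowest. The means were 122 ± 44.1 CPM for NM1 KO mice, compared with 54.1 ± 12.6 CPM for NM1 WT mice (SD, n = 3 each), a log2 fold change of 1.18 (SE 0.24), or 2.26-fold. Gas6 shares 34 exon bases with Tmem255b on the opposite strand, a gene with at most 2 counts in any library.

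Pros1, the gene of protein S, had 44.1, 70.2 and 37.5 CPM across NM1 KO libraries 1 to 3 and 20.4, 26 and 22.2 CPM across NM1 WT libraries 1 to 3. The libraries of the genotypes did not overlap, and NM1 KO 2 was again the highest. Its means were 50.6 ± 17.3 CPM for NM1 KO mice, compared with 22.9 ± 2.88 CPM for NM1 WT mice (SD, n = 3 each), a log2 fold change of 1.14 (SE 0.22), or 2.21-fold.

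Axl, the receptor with the highest affinity for Gas6, had 78.1, 144 and 79.5 CPM across NM1 KO libraries 1 to 3 and 55.4, 57.0 and 58.9 CPM across NM1 WT libraries 1 to 3. The NM1 WT values were nearly equal, NM1 KO 1 and NM1 KO 3 lay above them, and NM1 KO 2 was far above all others. The means were 100 ± 37.4 CPM for NM1 KO mice, compared with 57.1 ± 1.72 CPM for NM1 WT mice (SD, n = 3 each), a log2 fold change of 0.81 (SE 0.21). Without NM1 KO 2 it was 0.47.

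Mertk, the receptor of engulfing macrophages, had 39.4, 38.7 and 22.7 CPM across NM1 KO libraries 1 to 3 and 18.5, 16.3 and 20.3 CPM across NM1 WT libraries 1 to 3. Here NM1 KO 1 and NM1 KO 2 were alike and NM1 KO 3 lay close to the NM1 WT mice, a spread unlike that of Gas6, Pros1 and Axl. The means were 33.6 ± 9.44 CPM for NM1 KO mice, compared with 18.4 ± 2.03 CPM for NM1 WT mice (SD, n = 3 each), a log2 fold change of 0.87 (SE 0.21). An antisense gene within the Mertk locus, Gm14011, shares no exon bases with it and had 11 to 16 counts in NM1 KO and 2 to 6 in NM1 WT.

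Tyro3 was barely detected, with 18, 14 and 14 counts in NM1 KO 1 to 3, against 26, 8 and 14 counts in NM1 WT 1 to 3. That is 0.783, 0.645 and 0.656 CPM for NM1 KO mice, compared with 1.76, 0.464 and 0.918 CPM for NM1 WT mice. The groups overlapped, and the log2 fold change of -0.58 had an SE of 0.67. Without NM1 WT 1 it was 0.02, so no difference was detectable at this depth.

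**Figure D1:**
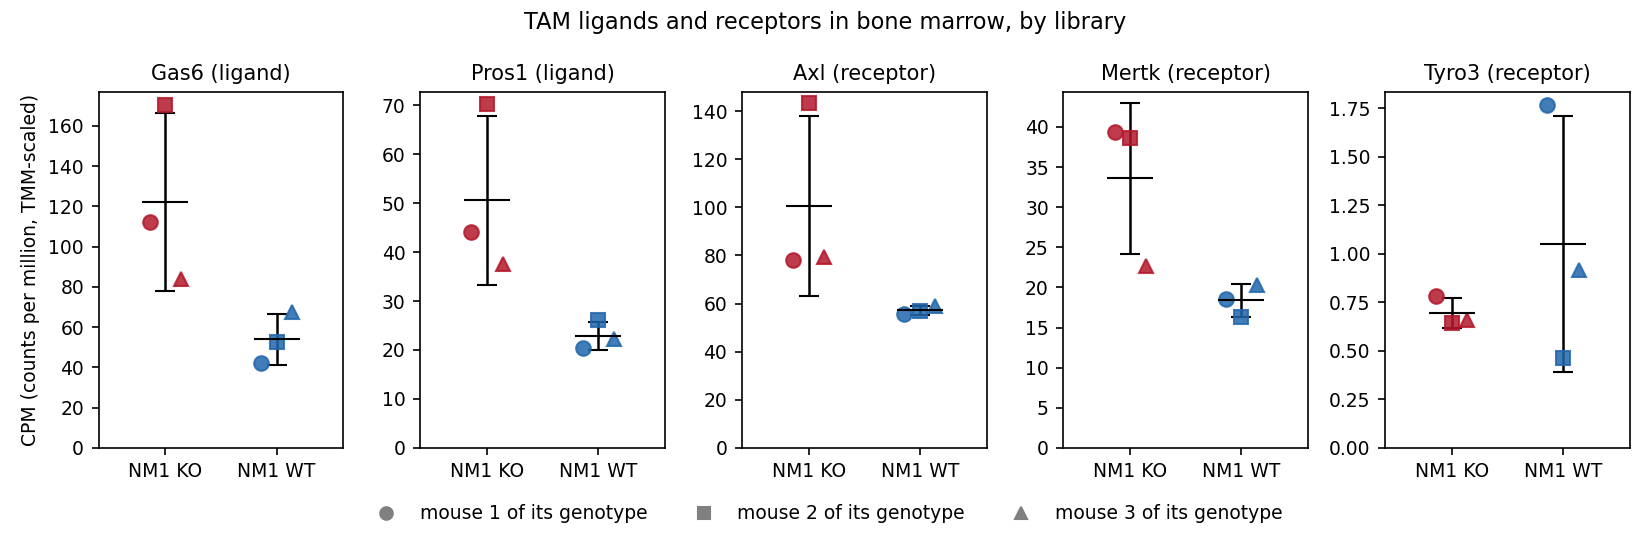
CPM (TMM-scaled, y axis, each panel on its own scale from 0) of the 5 TAM genes in 3 NM1 KO and 3 NM1 WT libraries; points are mice, and bars are the mean ± SD. Gas6, Pros1, Axl and Mertk are higher in every NM1 KO library than in any NM1 WT library, and Tyro3 overlaps.

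Of the 5 genes, 4 did not overlap between the genotypes, all higher in NM1 KO. Over all tested genes 20.5% did not overlap in either direction and 10.8% were higher in NM1 KO without overlap. In the fit across all 15069 tested genes, 2 of the 5, the ligands Gas6 and Pros1, passed an adjusted p of 0.05, and 0.776% of all tested genes passed. Since that contrast was in view when the genes were proposed, nothing is read from these counts. Gas6 kept its place past the threshold without NM1 KO 3 (log2 fold change 1.39) but not without NM1 KO 1 (1.23), NM1 KO 2 (0.86), NM1 WT 1 (1.03), NM1 WT 2 (1.16) or NM1 WT 3 (1.36). Pros1 kept it without NM1 KO 3 (1.32) or NM1 WT 2 (1.25) but not without NM1 KO 1 (1.23), NM1 KO 2 (0.84), NM1 WT 1 (1.07) or NM1 WT 3 (1.12). Mertk passed it without NM1 KO 3 (1.09).

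Within the libraries that held Y-linked transcripts, 2 NM1 KO against 1 NM1 WT, Gas6 averaged 141 CPM for NM1 KO mice, compared with 52.4 CPM for the NM1 WT mouse, and Mertk averaged 39.0 CPM in NM1 KO with 16.3 CPM in NM1 WT. Within those without them, 1 NM1 KO against 2 NM1 WT, Gas6 had 84.0 CPM for the NM1 KO mouse, compared with a mean of 54.9 CPM for NM1 WT mice, and Mertk had 22.7 CPM in NM1 KO with a mean of 19.4 CPM in NM1 WT. The ratio of NM1 KO over NM1 WT was thus 2.40 with and 1.17 without Y-linked transcripts for Mertk. It was 2.70 and 1.53 for Gas6, 2.20 and 1.76 for Pros1, and 1.94 and 1.39 for Axl. These ratios exceeded 1, and each gene had the larger one among libraries with Y-linked transcripts. Tyro3 had ratios of 1.54 with and 0.489 without them. With 1 mouse on a side, these ratios have no test. In a fit over all libraries with a term for Y-linked transcripts, Gas6 had a log2 fold change of 1.02 and Pros1 0.98. Without that term they were 1.18 and 1.14. Both ligands passed the threshold without the term, and neither passed with it. Axl had 0.72, Mertk 0.74 and Tyro3 -0.24 with the term, and these receptors did not pass in either fit. The part of sex in the differences was not tested.

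Levels of different genes were compared per kilobase of merged exons. In NM1 KO, Gas6 stood first with 48.0 ± 17.3 CPM per kb, followed by Axl with 19.9 ± 7.42, Pros1 with 12.4 ± 4.23, Mertk with 7.75 ± 2.18 and Tyro3 with 0.112 ± 0.0124 (SD, n = 3). In NM1 WT the same order held, with 21.2 ± 4.96 CPM per kb for Gas6, 11.3 ± 0.342 for Axl, 5.59 ± 0.705 for Pros1, 4.24 ± 0.467 for Mertk and 0.169 ± 0.107 for Tyro3 (SD, n = 3). Each of the 6 libraries gave this order. Among neighbours, Axl and Pros1 overlapped in their ranges over NM1 KO mice (15.5 to 28.5 and 9.18 to 17.2 CPM per kb), although Axl was the higher of the pair within every mouse. The other neighbours did not overlap within a genotype, though Pros1 and Mertk came close in NM1 KO (lowest Pros1 9.18 and highest Mertk 9.08 CPM per kb).

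**Figure D2:**
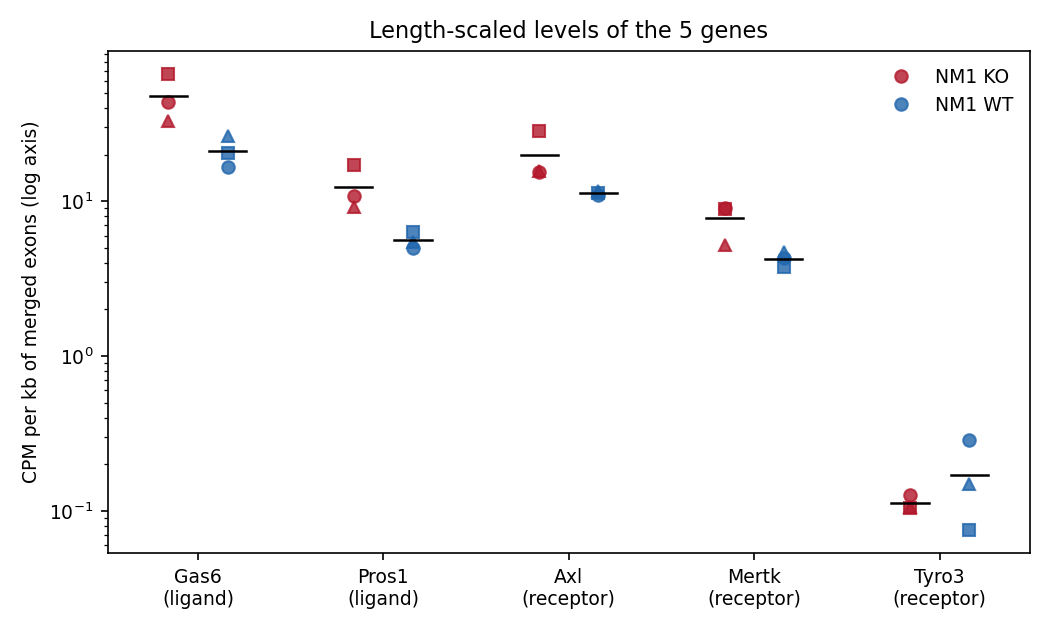
Levels of the 5 TAM genes per kilobase of merged exons (y axis, CPM per kb, log axis) in NM1 KO and NM1 WT libraries; points are mice, marked by shape as mouse 1 (circle), 2 (square) and 3 (triangle) of its genotype, and lines are means. Gas6 is the highest gene and Tyro3 the lowest in all 6 libraries.

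Set against the summed receptors, the summed ligands stood higher in NM1 KO than in NM1 WT. The genes were chosen with this contrast known, so the comparison is a description. The summed ligands had 54.9, 84.0 and 42.1 CPM per kb in NM1 KO 1 to 3, against 21.6, 26.9 and 31.9 in NM1 WT 1 to 3. The summed receptors had 24.7, 37.5 and 21.1 CPM per kb in NM1 KO, against 15.6, 15.2 and 16.5 in NM1 WT. Their ratio, which no scaling of libraries can move, came to 2.22, 2.24 and 1.99 in NM1 KO, with 1.39, 1.78 and 1.93 in NM1 WT. The ratios did not overlap, but NM1 KO 3 and NM1 WT 3 were nearly equal.

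Pair by pair, the ratio of Pros1 to Axl was the one that did not overlap, at 0.696, 0.602 and 0.581 in NM1 KO and 0.452, 0.562 and 0.465 in NM1 WT. No share of non-overlapping ratios over other gene pairs was computed, so nothing is read from this or from the summed ratio. The other pairs overlapped between genotypes: Gas6 to Axl averaged 2.42 ± 0.383 in NM1 KO and 1.86 ± 0.380 in NM1 WT, and Gas6 to Mertk 6.21 ± 1.32 in NM1 KO and 5.0 ± 0.969 in NM1 WT (SD, n = 3 each). Pros1 to Mertk, also overlapping, averaged 1.62 ± 0.385 in NM1 KO and 1.34 ± 0.307 in NM1 WT. The ratio between the ligands overlapped too, with Gas6 to Pros1 at 3.86 ± 0.247 in NM1 KO and 3.81 ± 0.917 in NM1 WT. Axl to Mertk averaged 2.64 ± 0.813 for NM1 KO mice, compared with 2.70 ± 0.280 for NM1 WT mice, and NM1 KO 1 was the lowest library at 1.71. As a mean of log2 CPM, ligands exceeded receptors by 2.48 ± 0.249 in NM1 KO and 1.76 ± 0.481 in NM1 WT, a difference of 0.71. Without Tyro3, whose few counts weigh on that mean, the excess came to 0.43 ± 0.108 for NM1 KO mice, with 0.10 ± 0.207 for NM1 WT mice, a difference of 0.33.

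**Figure D3:**
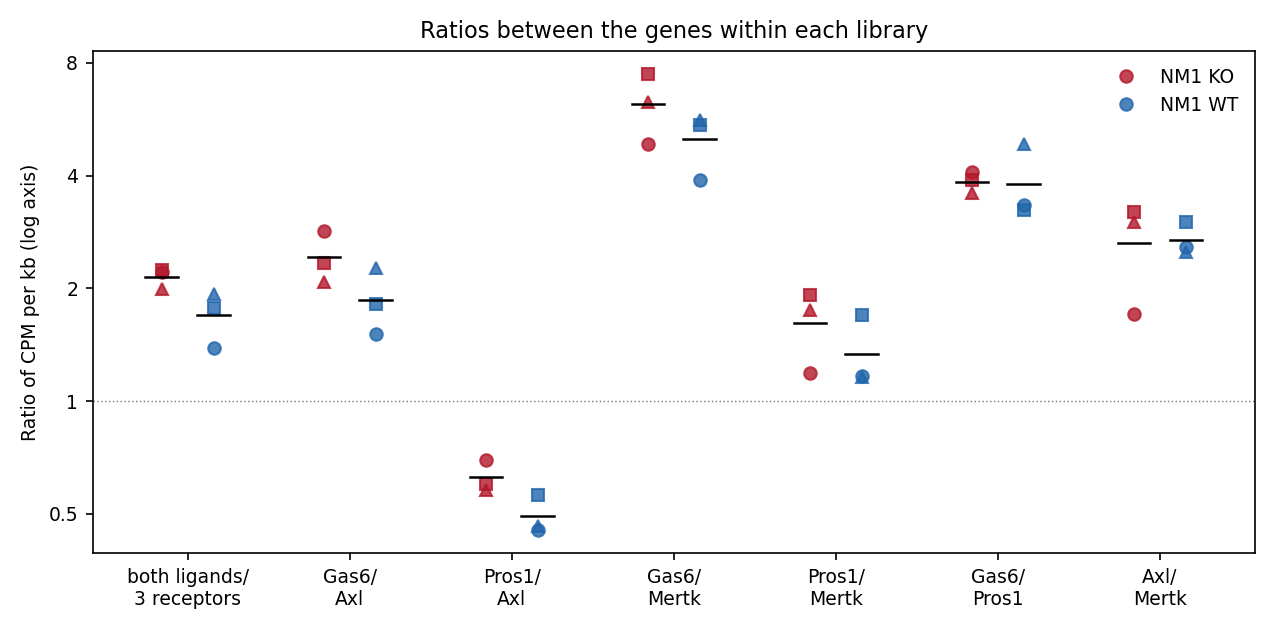
Ratios of CPM per kb between TAM genes within each library (y axis, log axis; the dotted line marks a ratio of 1) in NM1 KO and NM1 WT; points are mice, with shapes for mouse 1 (circle), 2 (square) and 3 (triangle), and lines are means. The ratio of both ligands to the 3 receptors and that of Pros1 to Axl do not overlap between genotypes, while Gas6 to Pros1 and Axl to Mertk average nearly the same in both.

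Genes of the most similar profile were sought among 10211 protein-coding genes with a mean of at least 5 CPM, by the root mean square difference of mean-centred log2 CPM over the 6 libraries. The nearest of so many candidates are bound to lie far below the median, which is given for scale only. The genes nearest to Gas6 had log2 fold changes of 1.18 to 1.25, close to its own 1.18. What makes such profiles alike was not tested. For Gas6 they were Treml1 (0.088), a receptor of platelet alpha granules, Gp1bb (0.089), a subunit of the von Willebrand factor receptor, and Cavin2 (0.097), a caveolar coat protein, against a median of 0.690 over all candidates. Treml1 had 118, 189 and 84.4 CPM among NM1 KO mice, with 49.9, 56.1 and 66.1 CPM among NM1 WT mice, close to the Gas6 values library by library. For Pros1 they were Cd5l (0.059), a secreted protein of tissue macrophages, Slc6a4 (0.074), the serotonin transporter, and Src (0.080), a tyrosine kinase (median 0.637). Cd5l had 54.5, 86.3 and 43.1 CPM among NM1 KO mice, with 25.2, 32.9 and 29.3 CPM among NM1 WT mice.

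For Axl the nearest genes were Prkca (0.086), protein kinase C alpha, Inafm2 (0.088) and Ankrd35 (0.0996), with a median of 0.505. For Mertk they were Ptch1 (0.070), the hedgehog receptor, Stab1 (0.076), a scavenger receptor that binds phosphatidylserine, and Shank3 (0.114), with a median of 0.533. Stab1 had 24.3, 22.1 and 14.2 CPM among NM1 KO mice, with 10.5, 10.03 and 13.4 CPM among NM1 WT mice, with NM1 KO 3 lowest of its genotype as for Mertk. Among the TAM genes themselves, Gas6 and Pros1 were the closest pair (0.198), and Pros1 and Axl came next (0.214). Tyro3 lay 0.783 or more from every other TAM gene, and its nearest gene, Slc9a3r2, was 0.165 away.

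The genes around the TAM system were described in 11 lists, chosen with earlier results of these data known, so their calls are a description. The lists held 149 genes other than the 5, of which 128 were tested. Of these, 2 rose in NM1 KO and 0 fell, against 0.591% of all tested genes that rose and 0.186% that fell. Their median log2 fold change was 0.08 with 53.9% of genes positive, against 0.00 and 50.2% over all tested genes. The 2 that rose belong to the list of other apoptotic cell receptors and bridges, where 2 of 22 passed (median 0.20). Itgb3, the integrin beta 3 chain that binds the bridging protein Mfge8 on phagocytes and fibrinogen on platelets, had 411, 620 and 369 CPM among NM1 KO mice, with 186, 209 and 231 CPM among NM1 WT mice. Its log2 fold change was 1.16 (SE 0.19, edgeR's quasi-likelihood adjusted p = 0.0230). Thbs1, thrombospondin 1, which bridges dying cells to phagocytes and fills platelet alpha granules, had 562, 938 and 330 CPM among NM1 KO mice, with 228, 199 and 171 CPM among NM1 WT mice (log2 fold change 1.61, SE 0.29, edgeR adjusted p = 0.0345).

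Neither call held on leaving out each library in turn. Leaving out NM1 WT 1 gave Itgb3 an edgeR adjusted p of 0.127, leaving out NM1 WT 3 gave 0.0556, and each other omission gave 0.00972 to 0.0399. For Thbs1 the edgeR adjusted p was 0.117 on leaving out NM1 WT 1, 0.105 on leaving out NM1 WT 3 and 0.0504 on leaving out NM1 KO 2. A term for Y-linked transcripts gave it 0.0769, and limma-voom 0.0621.

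No other list had a gene past the threshold. In the vitamin K cycle that activates the TAM ligands, 0 of 7 passed (median 0.00). Ggcx, the gamma-carboxylase, averaged 8.52 CPM for NM1 KO mice, compared with 9.70 CPM for NM1 WT mice, and Vkorc1, the vitamin K epoxide reductase, 4.72 CPM for NM1 KO mice, compared with 4.73 CPM for NM1 WT mice. Its paralog Vkorc1l1 had 71.5 CPM for NM1 KO mice, compared with 55.0 CPM for NM1 WT mice, without overlap between genotypes (log2 fold change 0.38, edgeR adjusted p = 0.177), and Nqo1, a quinone reductase, had a log2 fold change of 0.59 (edgeR adjusted p = 0.307).

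Of the other Gla proteins, which share this modification, 0 of 7 tested passed (median 0.11). Mgp, matrix Gla protein, averaged 57.6 CPM for NM1 KO mice, compared with 22.5 CPM for NM1 WT mice (edgeR adjusted p = 0.119). Its log2 fold change of 1.36 was 0.80 with a term for Y-linked transcripts. Bglap, osteocalcin, averaged 2.27 CPM for NM1 KO mice, compared with 0.598 CPM for NM1 WT mice (edgeR adjusted p = 0.160), though reads shared with its near-identical copies make its count uncertain. Proc, protein C, was at 0 counts in all libraries. Of the anticoagulant partners of protein S, 0 of 5 tested passed (median 0.70). Tfpi, tissue factor pathway inhibitor, for which protein S is a cofactor, had 23.5, 35.6 and 19 CPM among NM1 KO mice, with 11.5, 13 and 14.4 CPM among NM1 WT mice (log2 fold change 1.00, SE 0.23, edgeR adjusted p = 0.0751). Thbd, thrombomodulin, had a log2 fold change of 0.70 (SE 0.20, edgeR adjusted p = 0.130), also with no overlap.

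In receptor shedding 0 of 5 passed (median 0.26). Adam10, a sheddase of Axl and Mertk, averaged 216 CPM for NM1 KO mice, compared with 149 CPM for NM1 WT mice with no overlap (edgeR adjusted p = 0.0779), and Timp3, an inhibitor of sheddases, had a log2 fold change of 0.85 (SE 0.43, edgeR adjusted p = 0.351), which was 0.17 without NM1 KO 2 and 0.38 with a term for Y-linked transcripts. Of 18 genes of TAM signalling and its brakes on cytokines, 0 passed (median 0.14). Src had 36.1, 55.4 and 29.2 CPM among NM1 KO mice, with 15.7, 20.7 and 20.2 CPM among NM1 WT mice (log2 fold change 1.09, SE 0.23, edgeR adjusted p = 0.0513). Ptpn11, the phosphatase SHP2, had a log2 fold change of 0.43 (edgeR adjusted p = 0.150). Socs1 and Socs3, inhibitors of cytokine signalling that TAM receptors induce in dendritic cells, averaged 12.7 and 30.7 CPM among NM1 KO mice, with 17.4 and 22.2 CPM among NM1 WT mice, and were named after their values were seen.

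Of the engulfment machinery, 0 of 11 tested passed (median -0.17), with log2 fold changes of 0.52 for the adaptor gene Crk (edgeR adjusted p = 0.119) and -0.47 for the GTPase gene Rhog (edgeR adjusted p = 0.133). Among the lipid-sensing nuclear receptors, which include the LXRs that raise Mertk in macrophages, and their targets, 0 of 11 passed (median 0.28). The cholesterol exporter gene Abca1 had a log2 fold change of 0.86 (edgeR adjusted p = 0.138) and the receptor gene Ppard -0.39 (edgeR adjusted p = 0.272). Without NM1 KO 2 they were 0.57 and -0.26. Of the genes that expose or hide phosphatidylserine, the lipid that TAM ligands recognise, 0 of 12 tested passed (median 0.11). The flippase gene Atp8a1 and Nptn, a partner of the scramblase Xkr8, had log2 fold changes of 0.59 and 0.50 (edgeR adjusted p = 0.0850 and 0.119).

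Among 29 other receptor tyrosine kinases tested, 0 passed (median 0.14, from -1.37 to 1.44). Pdgfrb, a receptor of pericytes and stroma, had 35.5, 52.1 and 20.3 CPM among NM1 KO mice, with 12.6, 18.3 and 15.2 CPM among NM1 WT mice (log2 fold change 1.22, SE 0.29, edgeR adjusted p = 0.0786). Igf1r, the insulin-like growth factor 1 receptor, averaged 17.9 CPM for NM1 KO mice, compared with 30.8 CPM for NM1 WT mice (edgeR adjusted p = 0.0944). Of the other reported TAM ligands, 1 of 3 was tested, and Lgals3, galectin-3, had a log2 fold change of -0.42 (edgeR adjusted p = 0.211).

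**Figure D4:**
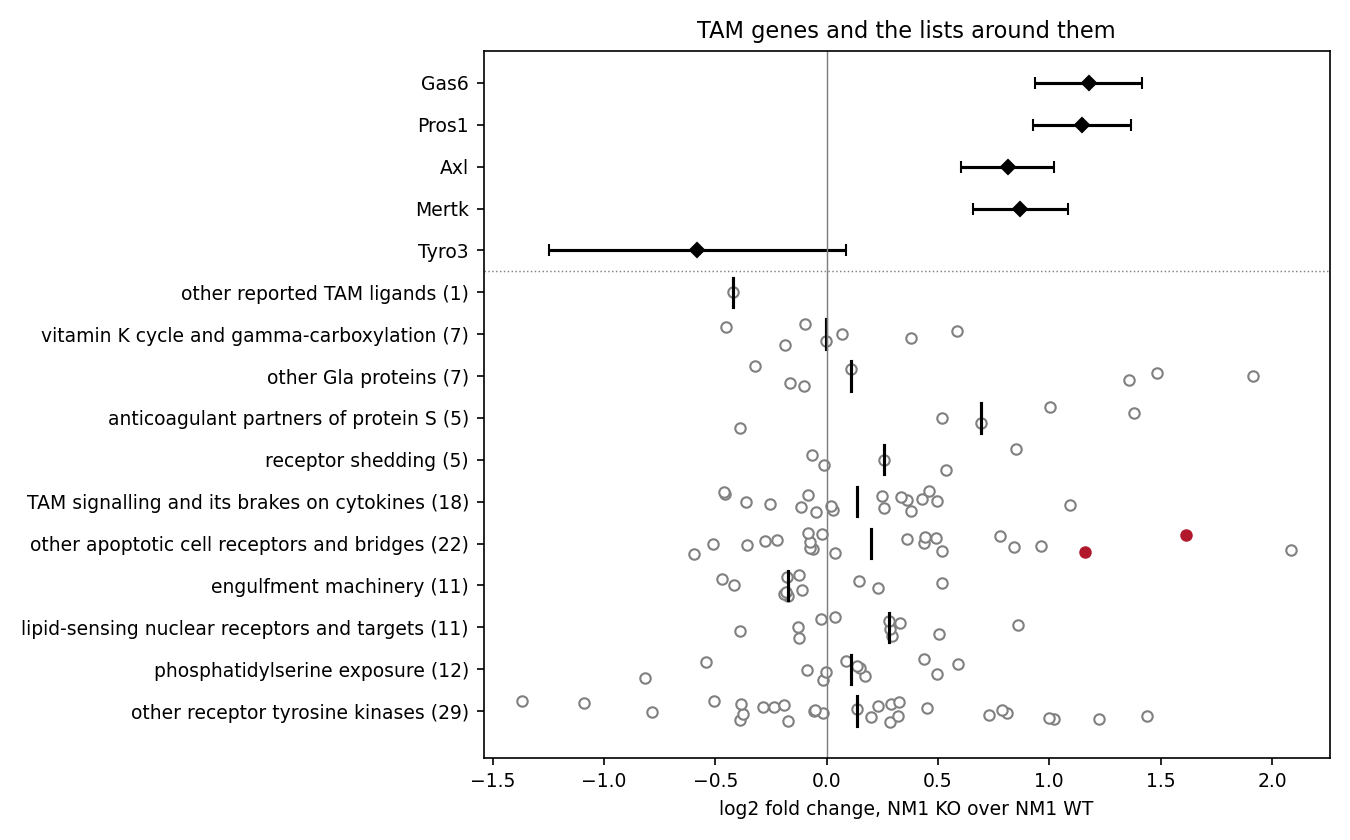
Log2 fold change of NM1 KO over NM1 WT (x axis) for the 5 TAM genes (diamonds, bars are SE) and, below the dotted line, for the tested genes of 11 surrounding lists (circles, number of tested genes in parentheses, black lines are list medians). The 2 filled circles are Itgb3 and Thbs1, the genes outside the 5 that passed an adjusted p of 0.05.

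Markers of cell types were described in 13 lists. These too were chosen with earlier results of these data known, so calls within them are a description. Over all tested genes 0.591% rose and 0.186% fell, with a median log2 fold change of 0.00 and 50.2% of genes positive. Which marrow cells made the TAM transcripts was not measured. Of 17 resident macrophage markers, 2 rose and 0 fell, and 15 had a positive log2 fold change (median 0.78). The summed level of the list was 1377 to 2690 CPM for NM1 KO mice, compared with 936 to 1177 CPM for NM1 WT mice. Mrc1, the mannose receptor, rose by 1.46 on the log2 scale and Vcam1, an adhesion molecule of macrophages and stroma, by 1.39 (edgeR adjusted p = 0.0396 each), whereas Adgre1, the F4/80 antigen, averaged 40.4 CPM for NM1 KO mice, compared with 39.1 CPM for NM1 WT mice. None of the 17 passed without NM1 KO 2, NM1 WT 1 or NM1 WT 3, or with limma-voom. The number was 1 without NM1 KO 1 or with a term for Y-linked transcripts, and 5 without NM1 KO 3. Of 12 megakaryocyte and platelet markers, 9 rose and 0 fell (median 1.35), with a summed level of 1795 to 4002 CPM for NM1 KO mice, compared with 874 to 1156 CPM for NM1 WT mice. Clec1b, the receptor CLEC-2, rose by 1.52 on the log2 scale (edgeR adjusted p = 0.00743), Mmrn1, multimerin 1, by 1.77 and Tubb1, the platelet tubulin, by 1.38. Between 2 and 11 of the 12 passed when a library was left out, the fewest being 2 on omitting NM1 WT 1, then 3 on omitting NM1 WT 3 and 5 on omitting NM1 KO 2. It was 4 with limma-voom and 4 with a term for Y-linked transcripts.

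Of 13 marrow stroma markers, 6 rose and 0 fell (median 1.2), with a summed level of 1392 to 2333 CPM for NM1 KO mice, compared with 679 to 817 CPM for NM1 WT mice. They included Col1a2, a chain of type I collagen (log2 fold change 2.08), Cxcl12, the niche chemokine (1.40), and Kitl, stem cell factor (1.45). Of the 13, 1 passed on omitting NM1 WT 1, and 2 passed on omitting NM1 WT 3, on omitting NM1 KO 2 or with limma-voom. Of 11 endothelial markers, 1 rose, Esam, a junction protein (log2 fold change 1.17), and all 11 were positive (median 0.77), with a summed level of 207 to 289 CPM for NM1 KO mice, compared with 137 to 203 CPM for NM1 WT mice. It did not pass without NM1 KO 2, NM1 WT 1 or NM1 WT 3, or with limma-voom. Of 7 skeletal muscle markers, a tissue that surrounds the bones, 4 rose, among them Tnnt3, Tnni2 and Myl1, which encode contractile proteins, and the sum of the 7 was 60.1 to 75.4 CPM for NM1 KO mice, compared with 14.9 to 24.1 CPM for NM1 WT mice. Of the 7, 0 passed on omitting NM1 WT 1, 1 on omitting NM1 KO 3 or with limma-voom, and 2 on omitting NM1 KO 1 or NM1 KO 2. On omitting NM1 WT 3 the number was 3, but Tnni2 and Myl1 no longer passed. No marker of these 5 lists was at 0 in all libraries, and their part in the TAM differences was not tested.

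In the other lists, monocyte markers summed to 981 to 1357 CPM for NM1 KO mice, compared with 1473 to 1934 CPM for NM1 WT mice, and neutrophil markers to 30331 to 39019 CPM for NM1 KO mice, compared with 39056 to 52767 CPM for NM1 WT mice, with 0 of 8 and 0 of 10 past the threshold. The median log2 fold changes were -0.39 for monocyte markers (1 of 8 positive) and -0.47 for neutrophil markers (0 of 10 positive). The neutrophil sums of the genotypes nearly met. Of 9 osteoclast markers 5 were tested and 0 passed, yet 4 were positive with a median log2 fold change of 0.77, close to the macrophage and endothelial medians. Their summed level overlapped, at 862 to 1079 CPM for NM1 KO mice, compared with 994 to 1504 CPM for NM1 WT mice. Dendritic cell, erythroid, B cell and stem and progenitor lists overlapped in their sums, with 0 genes past the threshold. In the T and NK list, whose sums also overlapped, Cd4 rose by 1.19 on the log2 scale (edgeR adjusted p = 0.0302). Its adjusted p was 0.113 at most over the alternatives, and it did not pass without NM1 KO 1, NM1 KO 2, NM1 WT 1 or NM1 WT 3, with limma-voom or with a term for Y-linked transcripts.

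**Figure D5:**
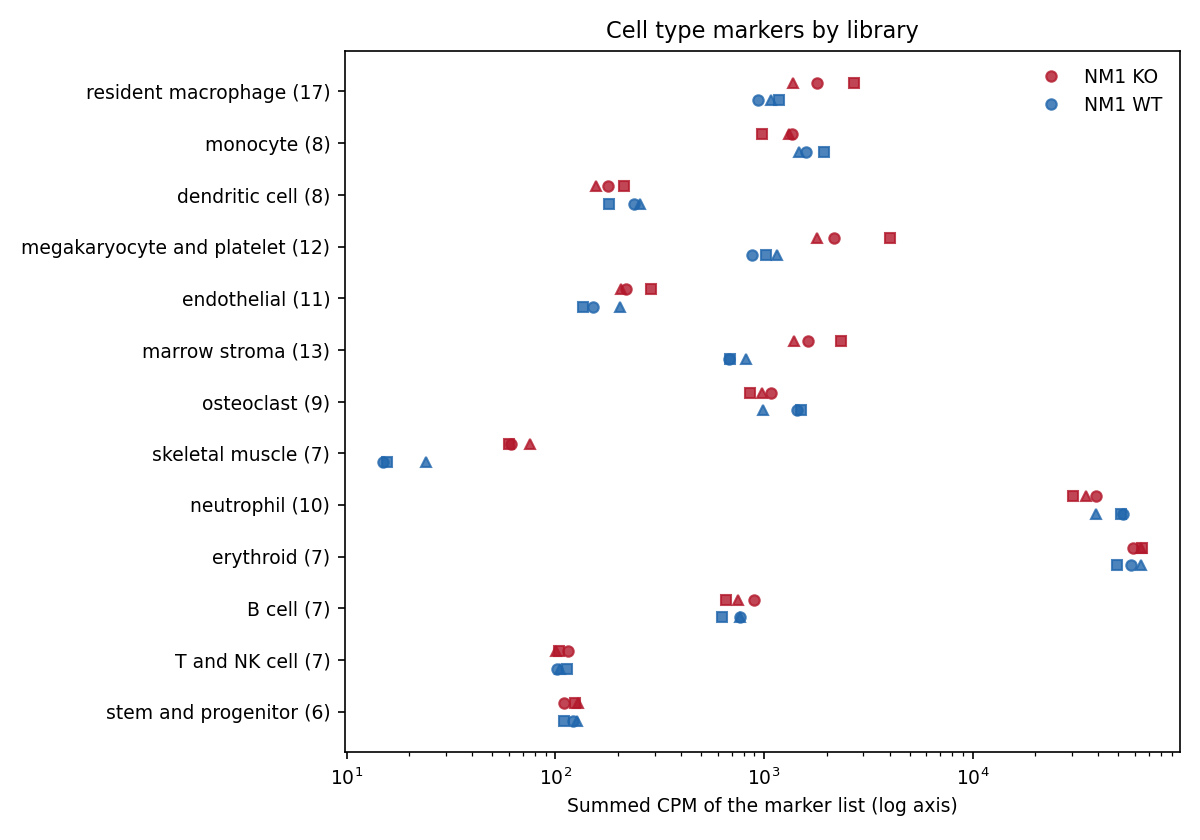
Summed CPM of 13 cell type marker lists (x axis, log axis; number of genes in parentheses) in NM1 KO (upper points of each row) and NM1 WT libraries (lower points); each point is a mouse, with shapes for mouse 1 (circle), 2 (square) and 3 (triangle). Resident macrophage, megakaryocyte, endothelial, marrow stroma and skeletal muscle sums are higher in every NM1 KO library, and monocyte and neutrophil sums are lower. The neutrophil sums nearly meet, at 39019 CPM for the highest NM1 KO library and 39056 CPM for the lowest NM1 WT library.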

How the data were processed

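RNA sequencing of bone marrow from 3 NM1 KO and 3 NM1 WT mice was used, grouped by the sample titles. The deposited files hold raw counts per Ensembl gene, not normalised by the authors. The submitters' processing notes say that the software included HTSeq, HISAT2 2.0.4, Trimmomatic 0.36, SAMtools 0.1.19 and FastQC, with builds GRCm38 and mm10. Which annotation and strand setting served is not given in the sources used here, so antisense reads cannot be told apart. At most 1.37% of counts from 1 to 19 were odd, so both mates of a pair appear to have been counted; halved counts were an alternative.

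Of 46603 genes, 46091 matched GENCODE M21 (GRCm38). Genotypes were compared in R 4.3.3 with edgeR 4.0.16's quasi-likelihood test, with genotype as the only term, filterByExpr defaults (15069 genes), TMM scaling and Benjamini-Hochberg adjustment over all tested genes (threshold 0.05). Log2 CPM used a prior count of 2. The pipeline was tested on simulated data. Promoters were taken from RefSeq (GRCm38.p6), where all 5 genes matched. The members and lists were chosen with earlier results of these data known. Genes named outside the 5 are those past the threshold in a list (up to 4, or 3 for markers), or the 2 of smallest p where none passed, and the 3 nearest profiles per TAM gene. Adgre1, Ggcx, Vkorc1 and Proc were named after their values were seen. Alternatives were scaling by total counts, RLE or the upper quartile, 2 other filters, DESeq2 1.42.0, limma-voom (limma 3.58.1), a replicate block, the Y-linked state as a covariate, longest-transcript lengths and leaving out each library. The software listed holds no tool made for molecular identifiers. Sequencing depth speaks to counting error only, while the p-values measure the spread between mice.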

Additional observations from a re-analysis of the deposited data

How the results depend on the processing

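The number of genes past the threshold, 117 in the analysis as reported, was 1138 with no low-count filter, 774 with DESeq2, 421 with the replicate block, 37 with limma-voom and 60 with a term for Y-linked transcripts, and 26 to 344 when a library was left out. For the 128 tested genes around the TAM system, 2 of which passed, the number was 30 with no low-count filter, 20 with DESeq2, 11 with the replicate block, 1 with the Y-linked state and 1 with limma-voom, and 0 to 8 when a library was left out. Scaling by RLE, upper quartile or total counts, a filter of 1 CPM in 3 libraries and halved counts kept both counts within 1.5 times. The cause of these shifts was not tested.

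Gas6 stayed positive in all 16 alternatives (log2 fold change 0.86 to 1.39) and passed the threshold in 6 of them, and Pros1 in all 16 (0.84 to 1.32) with 10 passing. RLE scaling, upper-quartile scaling, the filter of 1 CPM in 3 libraries and limma-voom were each enough for Gas6 not to pass. Pros1 passed with those scalings and that filter but not with limma-voom. Axl (0.47 to 0.96) and Mertk (0.74 to 1.09) stayed positive in all 16, with 2 and 3 passing. Tyro3 ranged from -0.94 to 0.02 over 14 alternatives and was not fitted with the 1 CPM filter or halved counts, which removed it. The ligand minus receptor difference was 0.33 without Tyro3, an alternative chosen after seeing the data, and 0.35 to 0.93 in the others. The order of levels was the same with longest-transcript lengths and without any library. For the 34 other genes named by the rule on lists, no direction turned in the alternatives fitted; the nearest-profile genes other than Src, Myo1c and the genes named after their values were seen were not checked this way.

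Same-numbered libraries deviated together only weakly (correlations across genes of 0.0609 to 0.115), so the numbers were not treated as pairs, though every library correlated best with its own number. Low counts limit Tyro3, at 8 to 26 a library, and likewise Bglap (8 to 12 in NM1 WT) and Myl1 (4 to 6 in NM1 WT). Since both mates of a pair appear to have been counted, the sequenced fragments were fewer than these counts. With halved counts neither Tyro3 nor Bglap was fitted.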
